A study of Mus musculus with 6 samples.

Results

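The genes described here are the translation initiation and elongation factors of mouse bone marrow, taken as every row of the deposited gene table whose symbol begins with Eif or Eef followed by a digit. The symbol pattern found 65 rows, the rule leaves out 3 of them, and 62 of the 17173 genes in the table remained. The bone marrow came from mice that model multiple myeloma, the malignancy of antibody-secreting plasma cells, and was studied by RNA sequencing. There were 6 libraries, 3 with the genotype label control and 3 with the genotype label Che-1 silencing, and all 6 carried the same source label, VkCHE mice. The sample titles call the second group vkche without explaining the letters, and its libraries are named here by that title. The labels used here give neither age, sex, silencing agent nor the promoter of any transgene. No label says that the 3 libraries of a group are 3 different mice. The p-values therefore rest on the spread of these libraries alone, part of which may be technical.

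Translation initiation loads a ribosome onto a messenger RNA and finds its start codon. The factor eIF2 brings the initiator tRNA as a complex with GTP, eIF2B recharges eIF2 with GTP, and kinases that phosphorylate eIF2 turn this recharging off under stress. The large complex eIF3 holds the small ribosomal subunit, and eIF4F, made of the cap-binding protein eIF4E, the scaffold eIF4G and the helicase eIF4A, brings the messenger RNA. The 4E-binding proteins block eIF4E until mTOR phosphorylates them. During elongation eEF1A delivers each aminoacyl-tRNA, the other eEF1 subunits recharge eEF1A, and eEF2 moves the ribosome along. Plasma cells secrete antibody in large amounts, and many initiation factor genes are textbook targets of the transcription factor MYC.

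Values per library were whole counts recovered from the deposited group means, as described under the processing, and were divided by size factors from synthetic ERCC spike-in RNAs. Whether the spike-ins were added per cell or per amount of RNA is not given in the sources used here. These normalized counts form the spike-in scale. On the relative scale the median log2 level of every library was set equal, so that a difference there is a difference from the median gene. Counts per library were recovered for 59 of the 62 genes. For Eef1a1, Eef2 and Eif4g2 the deposited table gave the group means only, and Eif3j1 and Eif3j2 lay below the minimum mean of 10 normalized counts, so 57 factor genes were tested. Reads of the genes with recovered counts numbered between 11317166 and 24899535 per library. Missing from these totals are 97 genes that made up 18.3% (control) and 17.3% (vkche) of all deposited means. The counts of the tested factor genes ranged from 129 to 20185 reads per gene and library. The median gene of the table was 1.54 log2 units higher per spike-in in the vkche libraries. Aatf, which encodes Che-1, was 1.98 log2 units higher there (SE 0.57, limma adjusted p = 0.0021), a call that ended without control replicate 2 (adjusted p = 0.0568) or 3 (adjusted p = 0.0576). This goes against the direction of the label, so the directions given here belong to the label vkche, and a loss of Che-1 was not measured. Xist, the RNA that coats the inactive X chromosome of females, had group means of 5.64 and 68685 in the authors' deposited table, so a difference between the groups cannot be told apart from one of sex. Markers of plasma, B and T cells, neutrophils, red cell precursors and macrophages, the cells of bone marrow, were all detected, with 0 of the recovered markers of any list at 0. In whole bone marrow, fewer cells of a type and less RNA per cell cannot be told apart either.

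The letters CACGTG form the E-box that MYC with its partner MAX binds, and the promoter windows that hold it among the factor genes are shown because these genes are often described together as MYC targets. RefSeq windows of GRCm38.p6, from 250 bases before to 50 bases after an annotated start, were matched by symbol to 48 of the 62 genes. The stretches are written 5′ to 3′ on the strand of the gene, with the E-box in capitals. Those of Eif5a2 and Eif5a belong to the pair of eIF5A genes that differed most from each other. Those of Eif4e, Eif4a1, Eef2 and Eef2k belong to the cap-binding protein, its helicase, the translocase and the kinase of the translocase. They lie at chr3:28781115-28781185 on the plus strand for Eif5a2, chr11:69921435-69921480 on the minus strand for Eif5a, chr3:138527184-138527229 on the plus strand for Eif4e, chr11:69672587-69672632 on the minus strand for Eif4a1, chr10:81176568-81176613 on the plus strand for Eef2 and chr7:120842780-120842825 on the plus strand for Eef2k.
Eif5a2: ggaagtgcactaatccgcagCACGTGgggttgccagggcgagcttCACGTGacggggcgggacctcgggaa
Eif5a: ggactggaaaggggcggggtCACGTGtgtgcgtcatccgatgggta
Eif4e: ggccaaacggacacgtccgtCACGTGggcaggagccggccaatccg
Eif4a1: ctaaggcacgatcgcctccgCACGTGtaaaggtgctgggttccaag
Eef2: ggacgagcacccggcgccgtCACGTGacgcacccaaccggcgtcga
Eef2k: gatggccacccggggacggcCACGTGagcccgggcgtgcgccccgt

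The E-box was searched as CACGTG, which reads the same on both strands. It was present in 12 of the 48 factor genes with a window (25.0%) and in 2187 of all 27025 genes with one (8.09%). The other 6 factor genes holding it were Eif1b, Eif3a, Eif3f, Eif3k, Eif4g1 and Eif4h. In Eif5a2 it was found at 142 and at 117 bases before the start. Eif4e also holds it at 2 places of a window, at 228 bases and at the printed 64 bases before the start, and Eif4g1 at 54 bases before and 15 bases after the start. Eif5a holds it at a further place, 178 bases before another annotated start. Genes with several annotated starts have more windows, and Eif5a has 6. Among genes that were tested for a difference, it stood in 11 of 45 factor genes (24.4%) and in 1299 of 11502 genes (11.3%). The median log2 difference on the relative scale was 0.42 for the tested factor genes that hold it and 0.37 for those that do not, against 0.08 and 0.02 over all tested genes with a window. The element TGATGNAA, of the kind bound by the stress factor ATF4, was searched on both strands and stood in 1 of the 48 factor genes (2.08%), Eef2k, and in 4.51% of all genes with a window. A C followed by at least 4 pyrimidines at the annotated start, the layout of mRNAs whose translation mTOR controls, was found in 1 of the 48, Eif3f, and in 3.01% of all. This search read only from the exact annotated base, so a start annotated slightly off is missed. It does not show that the other factor genes lack the layout. These matches describe letters in a window and not bound sites.

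Per spike-in RNA, nearly every translation factor gene was more abundant in the vkche libraries, and none was less abundant. On the spike-in scale 52 of the 57 tested factor genes rose (limma adjusted p of at most 0.05), while 66.7% of all 14604 tested genes rose by the same test. On this scale the fit shares its spread among genes of like level, while all genes of a library share its scaling. The spike-in p-values here and below are therefore smaller than 3 against 3 libraries warrant. Of the factor genes 0 fell by limma, 0 by edgeR and 0 by DESeq2, against 0.746% of all genes by limma. The median log2 difference was 1.94 for the factor genes and 1.54 for all genes. All 57 lay above 0, against 93.9% of all genes, and 0 below it, against 6.15%. At an unadjusted p under 0.05, 54 were higher, against 70% of all genes, and 0 lower, against 0.897%. In 49 of the 57 the vkche libraries all lay above the control libraries, against 68% of all genes, and in 0 all below them, against 0.438%. The 5 that did not pass were Eef2k (0.31), Eif2c2 (0.77), Eif2ak1 (0.92), Eif4ebp3 (1.12) and Eif2c3 (1.13). Nearest the threshold, Eif4ebp2 passed with a log2 difference of 1.21 (SE 0.57, limma adjusted p = 0.0483) and Eif4ebp3 missed it with 1.12 (SE 0.53, limma adjusted p = 0.0511). The call of Eif4ebp2 ended without each library except control replicate 1 and vkche replicate 3, with limma adjusted p from 0.149 to 0.252. The 57 genes' count of rises was 18 without control replicate 2, 21 without control replicate 3 and 33 without vkche replicate 1, and 0 when each gene was given only its own spread, where 0% of all genes rose as well. The 9745 rises over all genes became 3223, 3536 and 5649 without the same libraries in turn. Without control replicate 2 the rises were 7 of the 12 eIF3 subunits, both eIF2 subunits, both eIF5A genes, 2 of 5 for eIF1 and eIF1A, 1 of 5 for eIF2B, 1 of 4 for eEF1, 1 of 9 for eIF4F and its helpers, Eif4a3 and 1 of the 3 genes of eIF5, eIF5B and eIF6. The kinases, the inhibitors of eIF4E, Eif2a, Eif2d and the Argonautes had 0 there.

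Relative to the median gene the factor genes also lay mostly higher in the vkche libraries, but none passed the test across all genes. Of the 57, 46 had a log2 difference above 0, against 50.8% of all tested genes, and their median was 0.41 against 0.01 for all genes. limma called 0 higher and 0 lower, where it called 0% and 0.0274% of all genes. At an unadjusted p under 0.05, 22 were higher and 2 lower, against 17.8% and 17.3% of all genes. edgeR called 0 in either direction, and DESeq2 called 15 higher and 2 lower, against 15% and 12.2% of all genes. The groups did not overlap for 15 that were higher and 6 that were lower, against 20.5% and 19.7% of all genes. The lower 6 were Eef2k, Eif4ebp3 and the 4 Argonaute genes listed under older Eif2c symbols. Without vkche replicate 3, 30 of the 57 were called higher and 3 lower, against 27.8% and 25.2% of all genes. By the adjusted p that the authors' deposited table gives, 0 of 61 factor genes passed at 0.05, against 0.0773% of all genes.

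In the authors' deposited table the 62 factor genes made up 1.87% (control) and 2.17% (vkche) of the sum over all genes, and Eef1a1, Eef2 and Eif4g2 alone 1.06% and 1.19%. Per library the share could be had only without these 3 genes and over the recovered reads. It was 1.10%, 0.925% and 0.918% across control replicates 1, 2 and 3 and 1.24%, 1.20% and 1.03% in the vkche libraries. Its mean was 0.981% ± 0.103 across the control libraries and 1.15% ± 0.111 in the others (SD, n = 3 each). vkche replicate 3 lay below control replicate 1, so the groups overlapped. Of the 46 factor genes above 0 on the relative scale, control replicate 1 was the highest control library for 44 and vkche replicate 3 the lowest of its group for 43, with both for 42. The same count was not made over all genes, so this order cannot be called particular to the factor genes. Marker genes of dividing cells moved alongside. The summed level of the 6 recovered cell cycle markers of 8 listed was 2100 to 8875 normalized counts across the control libraries and 7346 to 42433 in the others. All 6 passed as rises on the spike-in scale, against 66.7% of all genes, and 0 of them were at 0. Relative to the median gene, control replicate 1 had a sum of 22.9, against 8.89 for replicate 2 and 9.27 for replicate 3. The lowest vkche sum was 13.4, for replicate 3, against 35.4 for replicate 1 and 31.9 for replicate 2. Control replicate 1 thus lay above vkche replicate 3, and the groups overlapped here too. The part of dividing cells in the levels of the factor genes was not tested.

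**Figure D1:**
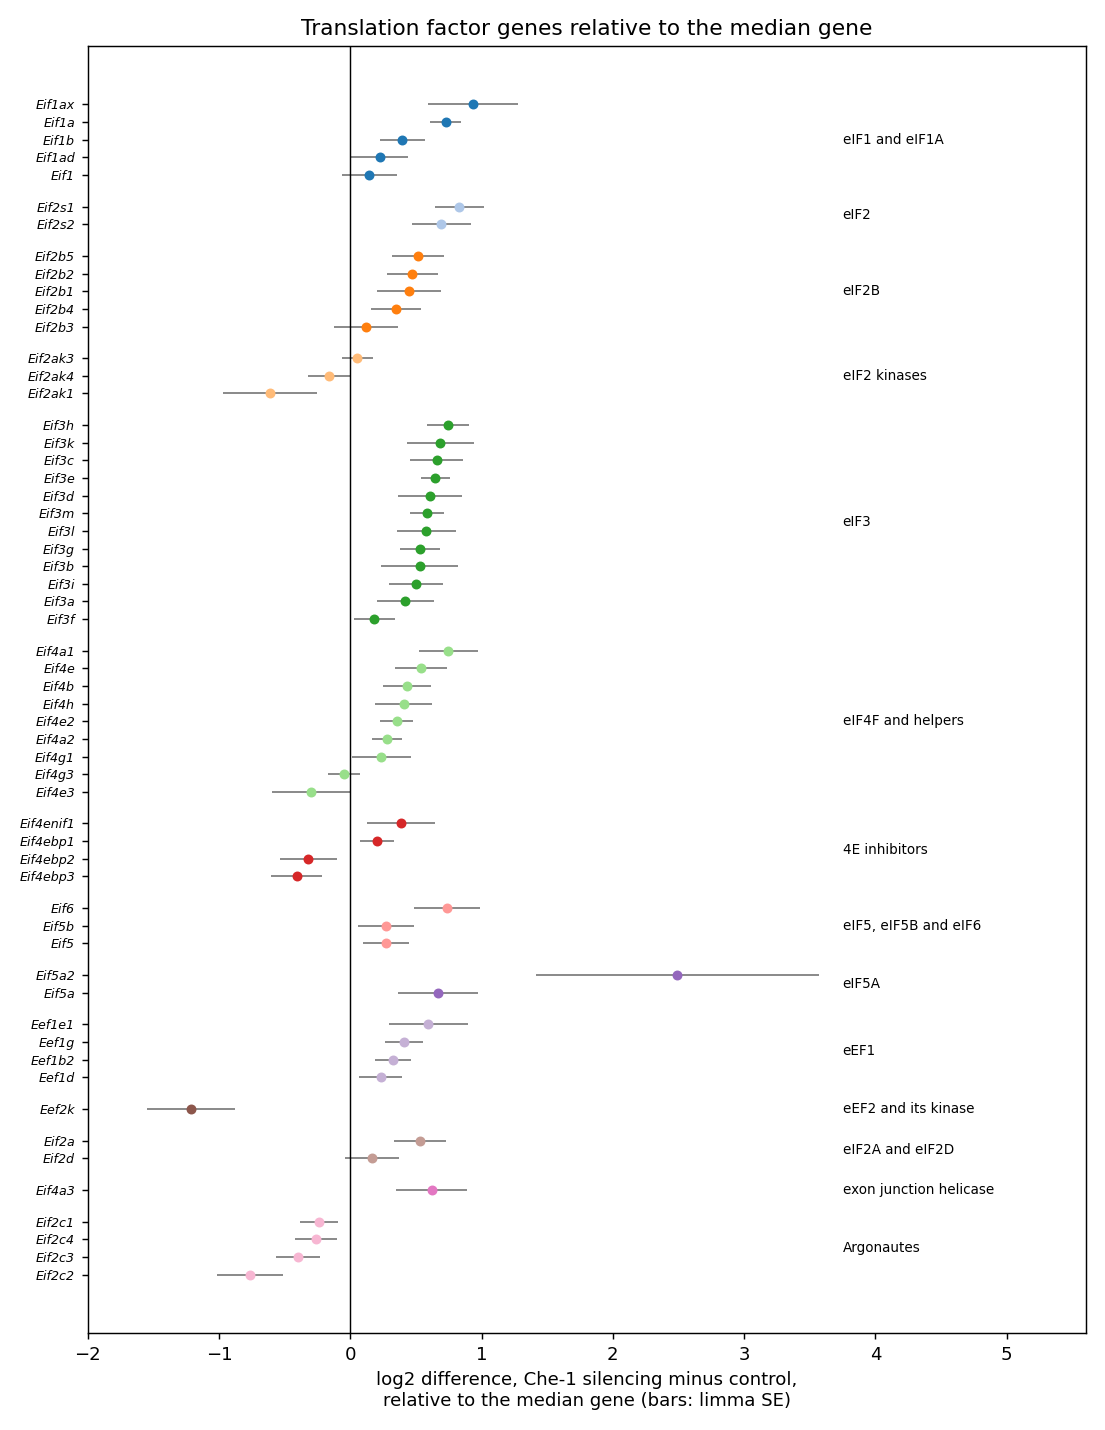
Log2 difference of each tested translation factor gene on the relative scale, libraries labelled vkche minus control, with its standard error (limma, n = 3 each) and grouped by role. The eIF3 subunits lie between 0.18 and 0.74, the Argonautes between -0.76 and -0.24, and Eef2k at -1.22.

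The factors that choose the start codon, eIF1 and eIF1A, rose per spike-in for all 5 genes tested, against 66.7% of all genes. On the relative scale 2 of the 5 were higher at an unadjusted p under 0.05, against 17.8% of all genes. Eif1, which keeps scanning ribosomes from pausing at wrong codons, had the highest count and the highest level per kb of the 5. Its level was 2721, 1057 and 1117 normalized counts in turn for control replicates 1, 2 and 3, against 4777, 7179 and 3049 for the vkche replicates in the same order. The lowest of the latter lay just above control replicate 1, and relative to the median gene Eif1 differed by 0.14 log2 units (SE 0.21, limma adjusted p = 0.623). Eif1a, one of the genes for eIF1A, stood at 964, 600 and 653 across the control libraries and at 3562, 5656 and 2051 in the others. On the relative scale its control libraries lay between -0.02 and 0.02 log2 units of their mean and all 3 other libraries lay above them, with a difference of 0.73 (SE 0.12, limma adjusted p = 0.0723). Eif1ax, the X-linked gene for eIF1A, stood at 884, 401 and 389 and at 3799, 5431 and 1130. Its relative difference, 0.93 log2 units (SE 0.34, limma adjusted p = 0.116), was carried by vkche replicates 1 and 2, while replicate 3 lay inside the control range. Eif1a and Eif1ax encode nearly the same protein, so reads could be split between them and their counts are uncertain. Eif1ad, a nuclear relative of eIF1A, and Eif1b, a close copy of Eif1, differed by 0.22 and 0.40 log2 units on the relative scale.

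Both subunits of eIF2 analysed here, alpha and beta, lay above most other factor genes on the relative scale, with a median of 0.76 log2 units. Eif2s1 encodes the alpha subunit, which carries the serine that stress kinases phosphorylate. It stood at 1783, 786 and 909 normalized counts across the control libraries and at 6206, 9095 and 3065 in the vkche libraries. The groups did not overlap on either scale, and the difference was 2.36 log2 units per spike-in (SE 0.58, limma adjusted p = 5.1e-04) and 0.83 relative to the median gene (SE 0.19, limma adjusted p = 0.0731). Eif2s2, the beta subunit, stood at 2337, 947 and 1106 and at 6696, 11440 and 3270. Its relative difference was 0.69 (SE 0.22, limma adjusted p = 0.0959), and vkche replicate 3 lay just under control replicate 1.

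The exchange factor eIF2B, which recharges eIF2 with GTP, lay higher for all 5 subunits, each of which rose per spike-in, against 66.7% of all genes. The relative differences ran from 0.12 for Eif2b3, the gamma subunit, to 0.51 for Eif2b5, the catalytic epsilon subunit, with a median of 0.45. Eif2b5 also had the highest count of the subunits, at 991, 494 and 578 normalized counts across the control libraries and 3139, 4636 and 1369 in the others. Its relative difference had an SE of 0.20 and a limma adjusted p of 0.124. Eif2b3 stood at 506, 184 and 203 and at 843, 1457 and 483, so vkche replicate 3 fell below control replicate 1 even per spike-in. The groups overlapped on the relative scale for all 5 subunits. The regulatory alpha, beta and delta subunits Eif2b1, Eif2b2 and Eif2b4 had relative differences of 0.45, 0.47 and 0.35.

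The eIF2 kinases analysed here had relative differences on both sides of 0, with a median of -0.16 over 3 genes. None of them had an unadjusted p under 0.05 by limma, where 17.8% of all genes were higher and 17.3% lower. Eif2ak1 encodes HRI, the heme-regulated kinase of red cell precursors. It stood at 2511, 735 and 774 normalized counts across the control libraries and at 1700, 2984 and 1905 in the others. Control replicate 1 lay within the range of the vkche libraries, and the difference was 0.92 log2 units per spike-in (SE 0.58, limma adjusted p = 0.145) and -0.61 relative to the median gene (SE 0.35, limma adjusted p = 0.247). Erythroid markers were high in the same control library. The 8 recovered of 9 listed, 0 of them at 0, summed to 23981, 5159 and 5851 normalized counts across control replicates 1, 2 and 3 and to 2222, 8437 and 9877 in the vkche libraries. Their part in the level of Eif2ak1 was not tested. Eif2ak3 encodes PERK, the kinase of endoplasmic reticulum stress. It stood at 1466, 832 and 911 and at 2922, 5371 and 1914 and rose per spike-in by 1.58 log2 units (SE 0.58, limma adjusted p = 0.0128), a call that ended without control replicate 2 (0.11), control replicate 3 (0.105), vkche replicate 1 (0.0606) or vkche replicate 2 (0.0574). Relative to the median gene it differed by 0.05 (SE 0.12, limma adjusted p = 0.737), and by -0.01 without vkche replicate 2. Eif2ak4, which encodes the amino acid sensor GCN2, differed by 1.37 per spike-in (SE 0.58, limma adjusted p = 0.0284) and by -0.16 relative to the median gene. That call ended without each of the same 4 libraries, with limma adjusted p from 0.108 to 0.169. A test of the difference between the kinases and eIF2 was not run, since genes of one library are not replicates.

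All 12 tested subunits of eIF3, the scaffold on the small ribosomal subunit, rose per spike-in with no overlap between the groups. Over all genes 66.7% rose and 68% lay higher without overlap. On the relative scale all 12 subunits lay above 0, against 50.8% of all genes. Their relative differences were close together, with a median of 0.58 and an SD over subunits of 0.15. Of the 12, 9 were higher at an unadjusted p under 0.05 on the relative scale, against 17.8% of all genes. Without vkche replicate 3, 10 were called higher, against 27.8% of all genes. Eif3a, the largest subunit, had the highest count, at 8497, 4018 and 4452 normalized counts across the control libraries and 17273, 43948 and 11566 in the others. Its relative difference was 0.42 (SE 0.22, limma adjusted p = 0.211), with vkche replicate 2 well above the other libraries. Per kb of exon its level, 1104 in the control group, was below those of Eif3h (1436), Eif3e (1312) and Eif3k (1148).

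Within eIF3 the lowest p-values on the relative scale were those of subunits E, H and M. Eif3e stood at 2638, 1581 and 1707 normalized counts across the control libraries and at 9018, 13178 and 5556 in the others, 0.65 log2 units higher on the relative scale (SE 0.11, limma adjusted p = 0.0723). Eif3h stood at 2515, 1436 and 1627 and at 9863, 14448 and 4670, with the largest relative difference of the complex, 0.74 (SE 0.16, limma adjusted p = 0.0731). Eif3m stood at 1372, 749 and 861 and at 4517, 6535 and 2454, a relative difference of 0.59 (SE 0.13, limma adjusted p = 0.0731). For all 3 the control libraries lay between -0.07 and 0.09 log2 units of their mean on the relative scale and the vkche libraries stood clear of them.

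The RNA-binding subunit Eif3g and the core subunit Eif3c separated the groups as well. Eif3g stood at 1278, 632 and 703 normalized counts and at 3611, 5837 and 1964, a relative difference of 0.53 (SE 0.15, limma adjusted p = 0.0863). Eif3c stood at 4359, 2280 and 2653 and at 14224, 26350 and 6669, a relative difference of 0.66 (SE 0.20, limma adjusted p = 0.0917). The remaining subunits Eif3b, Eif3d, Eif3i, Eif3k and Eif3l had relative differences from 0.50 to 0.69, and in each vkche replicate 3 lay below control replicate 1 on that scale. Eif3f lay lowest, at 2427, 1463 and 1596 and at 6855, 8972 and 3260, with a relative difference of 0.18 (SE 0.16, limma adjusted p = 0.405). The loosely bound subunit J has near-identical gene copies in the mouse, and their counts are uncertain. Eif3j1 had 0 reads in all 6 libraries, where 0 reads allow up to 1.41 to 7.20 normalized counts per library at a floor of 3 reads, which covers counting error only. Eif3j2 reached at most 2.40 normalized counts in any library.

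**Figure D2:**
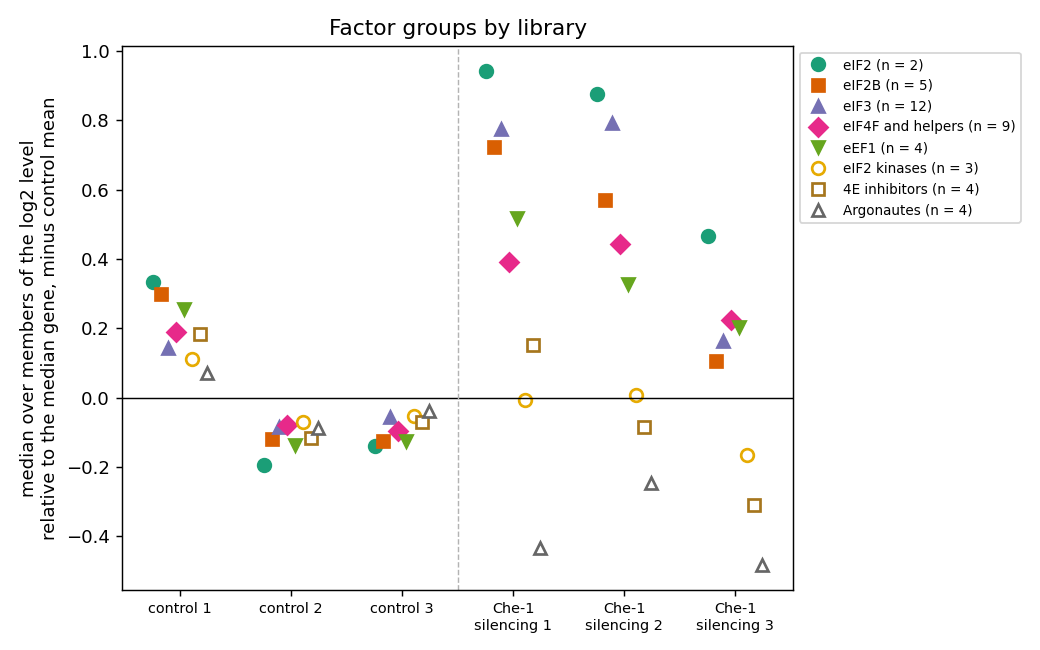
Median relative log2 level of the genes of each factor complex in each library, set against the mean of the 3 control libraries, with the vkche libraries drawn as Che-1 silencing. The vkche replicates 1 and 2 lie above all control libraries for eIF2, eIF2B and eIF3 (0.57 to 0.94), and replicate 3 lies at 0.47, 0.10 and 0.16. Replicate 3 is also above all control libraries for eIF2 and eIF3, where control replicate 1 is highest at 0.33 and 0.14. For eIF2B it is below control replicate 1, at 0.30.

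The cap-binding complex eIF4F and its helpers rose per spike-in for all 9 genes tested, against 66.7% of all genes. The groups overlapped for none of the 9, where 68% of all genes lay higher without overlap. Relative to the median gene the differences of the 9 spread more widely than those of eIF3, from -0.30 for Eif4e3 to 0.75 for Eif4a1. Their median was 0.35, and 7 of 9 lay above 0, against 50.8% of all genes. Eif4b, which stimulates the helicase, had the highest mean count of the 9, at 8831, 4445 and 4934 normalized counts across the control libraries and 24092, 40376 and 11727 in the others. Its relative difference was 0.43 (SE 0.18, limma adjusted p = 0.151). Eif4a1, the main helicase that unwinds leaders of messenger RNAs, stood at 6722, 2974 and 3535 and at 22729, 35696 and 9950. On the relative scale all 3 libraries labelled vkche lay above the control libraries, and the difference was 0.75 (SE 0.22, limma adjusted p = 0.0884). The helicase genes Eif4a1 and Eif4a2 are close copies that can share reads, so the split between them is uncertain.

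The cap-binding proteins had relative differences on both sides of 0. Eif4e, the main one, differed by 0.54 log2 units on the relative scale (SE 0.20, limma adjusted p = 0.118), and its relative Eif4e2, which can repress translation, by 0.35 (SE 0.13, limma adjusted p = 0.111). Eif4e3, a divergent form, stood at 325, 248 and 289 normalized counts across the control libraries and at 534, 828 and 685 in the others, which gave -0.30 on the relative scale (SE 0.30, limma adjusted p = 0.472). There it was lower in vkche replicates 1 and 2 and higher in replicate 3 than in any control library, and without replicate 3 it was called lower at -0.61 (limma adjusted p = 0.0218, in a range over its alternatives from 0.0218 to 0.832). The scaffolds Eif4g1 and Eif4g3 differed by 0.24 and -0.05 on the relative scale, and Eif4h, a partner of the helicase, by 0.41. Eif4g2 encodes DAP5, a scaffold without the site for eIF4E. The authors' deposited table gave it group means of 10744 and 42034 normalized counts, a fold of 3.91.

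Of the 4 proteins that hold back eIF4E, 3 rose per spike-in (Eif4ebp1, Eif4ebp2 and Eif4enif1), where 66.7% of all genes rose. The median over the 4 was 1.47 log2 units, against 1.54 for all genes. Their relative differences ran from -0.41 to 0.39 with a median of -0.06. None had an unadjusted p under 0.05 by limma, where 17.8% of all genes were higher and 17.3% lower. Eif4enif1, which carries eIF4E into the nucleus and into P-bodies, had the highest count of them. It stood at 2159, 889 and 1015 normalized counts across the control libraries and at 5199, 9169 and 2216 in the others, a relative difference of 0.39 (SE 0.26, limma adjusted p = 0.304). Eif4ebp3, a 4E-binding protein, stood at 151, 125 and 116 and at 285, 466 and 171. It lay lower in all 3 libraries labelled vkche on the relative scale, by -0.41 (SE 0.19, limma adjusted p = 0.174), and higher in all 3 per spike-in. Eif4ebp1 differed by 0.20 (SE 0.13, limma adjusted p = 0.289) and Eif4ebp2 by -0.32 (SE 0.22, limma adjusted p = 0.313) on the relative scale.

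A ratio of related genes within a library does not depend on how libraries are scaled to each other, and 5 such ratios were tested by exact permutation, two-sided, where 0.10 is the smallest p that 3 against 3 libraries allow. Eif4ebp2 to Eif4ebp1 was 3.11, 2.36 and 2.48 across the control libraries and 2.27, 1.67 and 1.61 in the vkche libraries, with every one of the latter below the control range (exact permutation p = 0.10, adjusted over the 5 ratios 0.333). Eif4a2 to Eif4a1 was 1.20 ± 0.229 against 0.878 ± 0.254 (SD, n = 3 each, exact permutation p = 0.2). Eif4e3 to Eif4e was 0.360 ± 0.103 against 0.219 ± 0.137 (SD, n = 3 each, exact permutation p = 0.2). Eif4g3 to Eif4g1 was 0.586 ± 0.124 against 0.475 ± 0.0491 (SD, n = 3 each, exact permutation p = 0.3). The groups overlapped in the last 3.

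The factors eIF5, eIF5B and eIF6, which act for or against the joining of the ribosomal subunits, rose per spike-in in all 3 genes. Of all genes 66.7% rose. Eif5, which triggers GTP hydrolysis by eIF2, stood at 6307, 2911 and 3302 normalized counts across the control libraries and at 14896, 22756 and 7579 in the others. Its relative difference was 0.27 (SE 0.18, limma adjusted p = 0.292), the same size as that of Eif5b, the GTPase of subunit joining. Eif6, which keeps free large subunits from joining and takes part in making them, stood at 701, 375 and 475 and at 3098, 4146 and 1093. It lay clear of the control libraries on the relative scale, with a difference of 0.74 (SE 0.25, limma adjusted p = 0.102).

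Eif5a2 had the largest difference of all tested factor genes, and it came from only part of the group. Both eIF5A genes encode the factor that carries hypusine and helps the ribosome through stalling sequences. Eif5a2 is the form with restricted expression. It stood at 489, 212 and 239 normalized counts across the control libraries and at 13042, 17094 and 482 in vkche replicates 1, 2 and 3. Replicates 1 and 2 were far above every control library, and replicate 3 lay within the control range. The fit gave 4.02 log2 units per spike-in (SE 0.57, limma adjusted p = 4.1e-10) and 2.49 relative to the median gene (SE 1.08, limma adjusted p = 0.153). The SE per spike-in is shared among genes of like level and does not measure the spread of Eif5a2 itself. Without replicate 3 the relative difference was 3.84 (SE 0.19, limma adjusted p = 4.5e-04), in a range over its alternatives from 4.5e-04 to 0.392. With its own spread only, the spike-in difference did not pass (limma adjusted p = 0.11).

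Eif5a, the broadly expressed form, stood at 6791, 2534 and 2772 normalized counts across the control libraries and at 21594, 27536 and 7764 in the others. Its relative difference was 0.67 (SE 0.30, limma adjusted p = 0.166), and replicate 3 lay inside the control range there. The ratio of Eif5a2 to Eif5a was 0.0720, 0.0838 and 0.0863 in the control libraries. In vkche replicates 1, 2 and 3 it was 0.604, 0.621 and 0.0620 (exact permutation p = 0.4 over the 3 against 3). Copies of Eif5a elsewhere in the genome can take some of its reads, so its counts are uncertain.

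Germinal centre B cell markers followed the same libraries as Eif5a2. The 7 recovered of 8 listed, 0 of them at 0, summed to 1313, 949 and 1046 normalized counts across control replicates 1, 2 and 3. In the vkche libraries they summed to 99152, 143011 and 3772, and all 7 rose on the spike-in scale, against 66.7% of all genes. Replicate 3 was thus above the control range for these markers but not for Eif5a2. Plasma cell markers, with 8 recovered of 11 listed and 0 at 0, summed to 6368 to 7389 across the control libraries and to 20939 to 33348 in the others. Of the 8, 6 rose, where 66.7% of all genes did. Their part in the level of Eif5a2 was not tested.

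**Figure D3:**
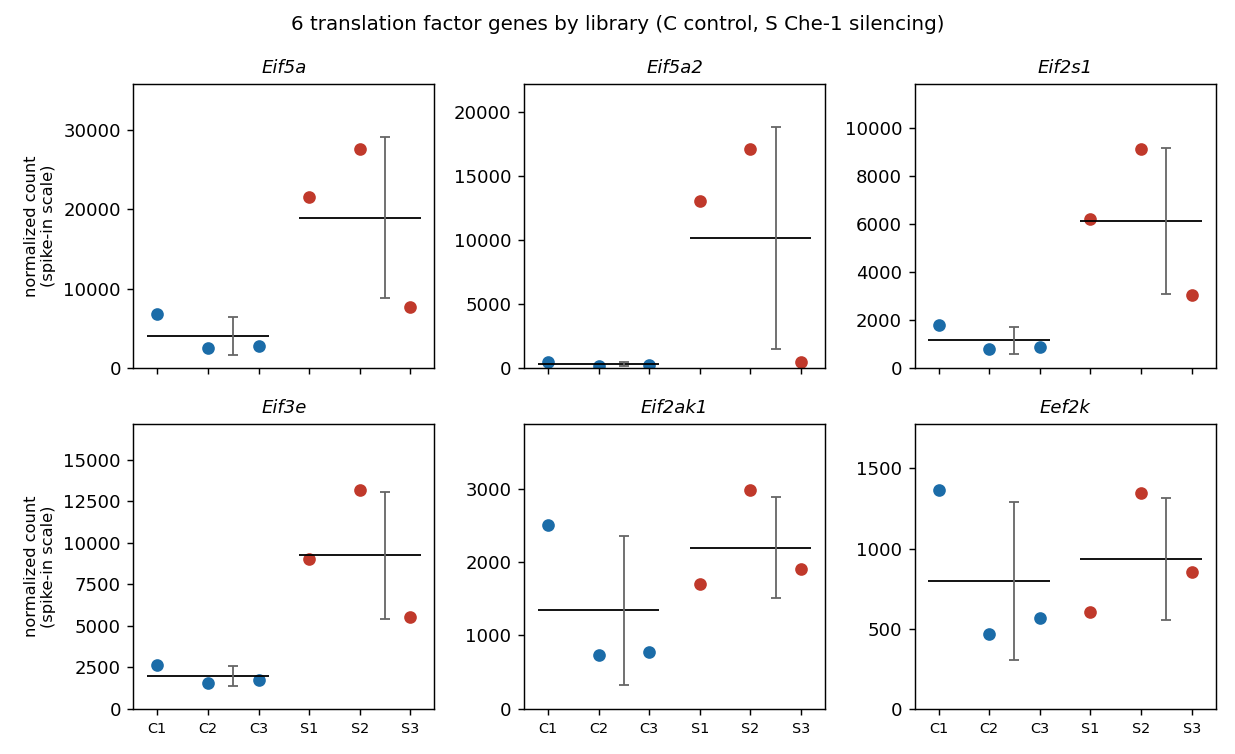
Normalized counts per library (linear axes from 0) of 6 factor genes in the control libraries (C1 to C3) and the vkche libraries (S1 to S3), with the mean as a line and the SD as a bar. Eif5a2 stands at 13042 and 17094 in vkche replicates 1 and 2 and at 482 in replicate 3.

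The elongation factor eEF1, which brings aminoacyl-tRNAs to the ribosome, rose per spike-in in all 4 tested genes with its name, against 66.7% of all genes. The groups overlapped for none of the 4, where 68% of all genes lay higher without overlap. On the relative scale the 4 lay between 0.23 and 0.59, with a median of 0.37. Eef1g, the structural gamma subunit, had the highest count of the 4, at 9157, 4591 and 5183 normalized counts across the control libraries and 24903, 35550 and 13933 in the others. It also lay above the control range on the relative scale in all 3, by 0.41 (SE 0.15, limma adjusted p = 0.11), and so did the exchange subunit Eef1b2, by 0.32 (SE 0.14, limma adjusted p = 0.147). Eef1d, the other exchange subunit, stood at 2398, 1042 and 1160 and at 4809, 7683 and 3068, a relative difference of 0.23 (SE 0.16, limma adjusted p = 0.326). Eef1e1, also called Aimp3 for its place in the tRNA synthetase complex, stood at 408, 151 and 159 and at 1172, 1541 and 457, a relative difference of 0.59 (SE 0.30, limma adjusted p = 0.198). For both of these the groups overlapped on the relative scale. Eef1a1, the tRNA carrier itself, had group means of 88114 and 338363 normalized counts in the authors' deposited table, a fold of 3.84. Many pseudogenes resemble Eef1a1, so its level is uncertain.

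The kinase of the translocase eEF2 was lower against the median gene in every vkche library than in the control libraries, without passing the test. Eef2 had group means of 26778 and 100728 normalized counts in the authors' deposited table, a fold of 3.76. Eef2k, the kinase that phosphorylates eEF2 and slows elongation, had the lowest relative difference of the 57 tested genes. It stood at 1367, 464 and 569 across the control libraries and at 605, 1349 and 853 in the vkche libraries. Per spike-in the groups overlapped, with a difference of 0.31 log2 units (SE 0.56, limma adjusted p = 0.617). Relative to the median gene all 3 libraries labelled vkche lay below the control libraries, by -1.22 (SE 0.33, limma adjusted p = 0.0839). It was called lower by DESeq2 and, at -1.49 (limma adjusted p = 0.00895), without vkche replicate 3, in a range over its alternatives from 0.00895 to 0.267. Erythroid markers had the same order of libraries as Eef2k on the relative scale. Their sums relative to the median gene were 61.7, 21.8 and 22.1 across control replicates 1, 2 and 3 and 2.77, 6.34 and 18.0 in the vkche libraries, and their part in the level of Eef2k was not tested.

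The alternative carriers of initiator tRNA, Eif2a and Eif2d, rose per spike-in, as did 66.7% of all genes. Eif2a stood at 1194, 534 and 625 normalized counts across the control libraries and at 3300, 5496 and 1594 in the others, a relative difference of 0.53 (SE 0.20, limma adjusted p = 0.121). Eif2d stood at 735, 348 and 404 and at 1811, 2480 and 786, a relative difference of 0.17 (SE 0.21, limma adjusted p = 0.562). In both the groups overlapped on the relative scale. Eif4a3, which carries a factor name but is the helicase of the exon junction complex, stood at 1549, 723 and 855 and at 5617, 7750 and 1931, a relative difference of 0.62 (SE 0.27, limma adjusted p = 0.155).

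The 4 Argonaute genes that the table lists as Eif2c1 to Eif2c4 are not initiation factors but the proteins that hold small RNAs, and their relative differences were below 0. All 4 were lower in every library labelled vkche on the relative scale, against 19.7% of all genes, and their median was -0.33. Eif2c2, which encodes the slicing Argonaute, had the highest count and the lowest relative difference. It stood at 6266, 2096 and 2401 normalized counts across the control libraries and at 4731, 8497 and 3861 in the others, a relative difference of -0.76 (SE 0.25, limma adjusted p = 0.0999), and it was called lower by DESeq2. Eif2c1 stood at 1767, 906 and 1019 and at 2956, 4979 and 1629, a relative difference of -0.24 (SE 0.15, limma adjusted p = 0.267). Per spike-in Eif2c1 and Eif2c4 rose, by 1.29 (SE 0.58, limma adjusted p = 0.0403) and 1.27 (SE 0.54, limma adjusted p = 0.0313). Both calls ended without control replicate 2 or 3 and without vkche replicate 1 or 2, with limma adjusted p from 0.12 to 0.206 for Eif2c1 and from 0.0926 to 0.164 for Eif2c4.

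Levels of different genes were compared per kilobase of exon, from GENCODE gene models. The complexes differed widely in level. In the control group the median level of the complex, in normalized counts per kb, was 1788 for eEF1, 945 for eIF4F and its helpers, 821 for eIF3, 458 for eIF2, 221 for the eIF2 kinases, 151 for eIF2B and 146 for the inhibitors of eIF4E. In the vkche libraries it was 6606 for eEF1, 3843 for eIF3, 3572 for eIF4F and its helpers, 2302 for eIF2, 622 for eIF2B, 508 for the eIF2 kinases and 407 for the inhibitors of eIF4E. Over the tested genes alone, the level of eIF3 was 1217, 598 and 682 across control replicates 1, 2 and 3, just under the 1316, 657 and 711 of eIF4F and its helpers. In the vkche libraries eIF3 was at 3815, 6133 and 1848 and eIF4F and its helpers at 3321, 5315 and 1620. The order of these neighbours was thus the same in all libraries of a group and the reverse between groups, by margins smaller than the spread between libraries. The level of eIF2B was 239, 103 and 117 against 303, 170 and 179 for the eIF2 kinases in the control libraries. In vkche replicates 1, 2 and 3 it was 638, 952 and 275 against 393, 690 and 395, so eIF2B was above the kinases in replicates 1 and 2 and below them in replicate 3. Single genes reached further, with Eef1a1 at 49116 and 188608 and Eef2 at 8669 and 32609 per kb from the authors' group means.

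**Figure D4:**
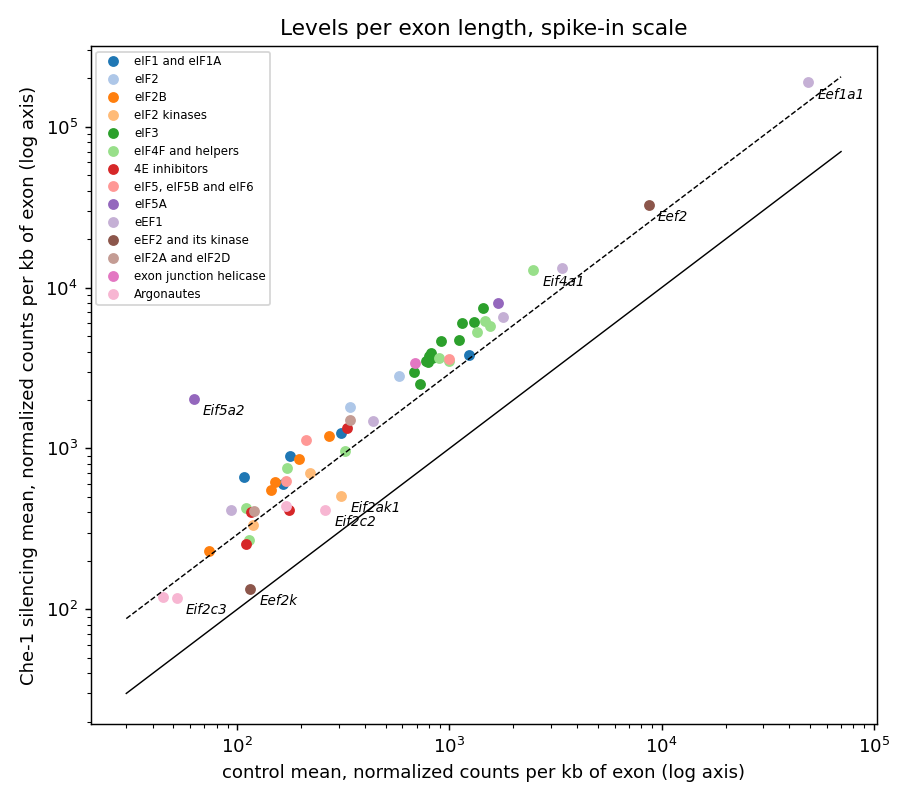
Level of each factor gene per kilobase of exon (log axes), control mean against the mean of the vkche libraries. The solid line marks equal levels and the dashed line the shift of the median gene of 1.54 log2 units. Eef2k lies nearest the solid line and Eif5a2 farthest above the dashed line.

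Genes of connected steps of translation were counted from lists with 53 genes, all with a row and 52 tested. Per spike-in 45 rose and 0 fell, against 66.7% and 0.746% of all genes. The 45 became 12 without control replicate 2 or control replicate 3, 21 without vkche replicate 1 and 26 without vkche replicate 2, so the counts of the single lists below rest on these libraries too. Relative to the median gene limma and edgeR called 0 and DESeq2 8 higher and 3 lower, and at an unadjusted p under 0.05 there were 10 higher and 4 lower, against 17.8% and 17.3% of all genes. In termination and recycling 10 of 12 rose per spike-in, where 66.7% of all genes did. Etf1, the release factor that reads stop codons, stood at 3024, 1394 and 1600 normalized counts across the control libraries and at 11443, 17255 and 5014 in the others, a relative difference of 0.87 (SE 0.21, limma adjusted p = 0.0755). Abce1, which splits ribosomes after termination, differed by 0.72 (SE 0.20, limma adjusted p = 0.0841), and Denr, which helps small subunits recycle, by 0.65 (SE 0.15, limma adjusted p = 0.0731). Both lie in the range of the eIF3 subunits.

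Among poly(A)-binding proteins and cap regulators 11 of 14 rose per spike-in, again against 66.7% of all genes. Paip2, an inhibitor of the poly(A)-binding protein, differed by 0.78 log2 units on the relative scale (SE 0.21, limma adjusted p = 0.0818), Paip1, its stimulator, by 0.47 (SE 0.12, limma adjusted p = 0.0814) and the helicase Ddx3x by 0.45 (SE 0.12, limma adjusted p = 0.0791). Ddx3y, the copy of Ddx3x on the Y chromosome, had the lowest relative difference of all tested genes, at -12.6. The difference of Ddx3x, which is X-linked, therefore cannot be told apart from one of sex. Others of the list differed the other way from Paip2, Paip1 and Ddx3x and were chosen after their values were seen. Pdcd4, an inhibitor of eIF4A, differed by -1.22 (SE 0.48, limma adjusted p = 0.128), Larp1, which binds mRNAs that mTOR controls, by -0.59 (SE 0.21, limma adjusted p = 0.113), and Rptor, a subunit of the mTOR complex, by -0.51 (SE 0.14, limma adjusted p = 0.083). In the integrated stress response, which phosphorylated eIF2 sets off, 9 of 10 rose per spike-in, against the same 66.7%. Atf4, the transcription factor of this response, differed by 0.36 (SE 0.22, limma adjusted p = 0.276) on the relative scale. Ppp1r15a, the phosphatase subunit that resets eIF2, stood at 3287, 1050 and 1119 normalized counts across the control libraries and at 1732, 2487 and 1889 in the others, a relative difference of -1.17 (SE 0.34, limma adjusted p = 0.0879). Chac1, a target of ATF4, stood at 22.2, 16.9 and 25.2 and at 149, 218 and 84.8, a relative difference of 1.14 (SE 0.28, limma adjusted p = 0.0776). Relative differences of this response thus lay on both sides of 0.

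In the list of enzymes that modify elongation factors, which also holds the elongation factor gene Eefsec, 6 of 7 genes rose per spike-in, against 66.7% of all genes. Dhps and Dohh, which make the hypusine of eIF5A, differed by 0.26 (SE 0.17, limma adjusted p = 0.283) and 0.34 (SE 0.20, limma adjusted p = 0.249) on the relative scale. Dph5, of the pathway that makes the diphthamide of eEF2, differed by -0.40 (SE 0.17, limma adjusted p = 0.146). All 9 mitochondrial translation factors rose per spike-in, against 66.7% of all genes. Of these Tufm, the mitochondrial counterpart of eEF1A, differed by 0.61 (SE 0.27, limma adjusted p = 0.16), Mrrf, the mitochondrial recycling factor, by 0.60 (SE 0.24, limma adjusted p = 0.129) and Mtrf1, a mitochondrial release factor, by 0.37 (SE 0.19, limma adjusted p = 0.201) on the relative scale.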

How the data were processed

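Total RNA of bone marrow was made into stranded libraries after ribosomal RNA depletion, per the labels' protocols. The submitters' processing notes list build mm9 and the tools HTSeq, TopHat, Cuffdiff and Cufflinks, with no versions. The authors deposited, for each library, the raw count of every ERCC spike-in and a gene table of group means of counts divided by spike-in size factors (a signal), with the authors' fold, log2 fold, p-value and adjusted p-value, per the file headers. The spike-in table also held summary rows that name no spike-in, of which 2 entered the deposited size factors beside 70 spike-ins.

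Counts per library were solved for as whole numbers that give the deposited mean. For means between 0 and 50, 4739 in the control group and 3330 in the other, exactly 1 solution was found, and of 1000 simulated means per group 993 and 1000 had 1 solution, all correct. The remaining 97 genes without a unique solution were left out of the fits. Because the table held group means, the planned test ran on these recovered values. limma 3.58.1 in R 4.3.3, with a mean trend, was run on log2(normalized count + 1) of 14604 genes with a mean of at least 10, adjusted by Benjamini-Hochberg over all of them at 0.05. For genes with few counts such log2 differences are too small. The fit was also run on simulated counts that varied independently between genes, without shifts shared by a library. That run therefore cannot check the calls made here. On the spike-in scale the fit shares its spread among genes of like level. edgeR 4.0.16 and DESeq2 1.42.0 on the recovered counts were alternatives, beside other pseudocounts (0.1, 5), minimum means (none, 50), scalings, a replicate block and each library left out.

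Lengths per kilobase came from GENCODE gene models, whose build differs from mm9, so no coordinates were taken from them. Promoter windows are from RefSeq. The factor genes and lists were chosen with earlier results of these data known. Values in every library are given for the most abundant gene and those with the highest and lowest relative difference of each role, and for the 12 lowest p on the relative scale. From the other lists values are given for up to 3 genes with the lowest p. Values of Pdcd4, Larp1 and Rptor are given too, chosen after they were seen.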

Additional observations from a re-analysis of the deposited data

How the results depend on the processing

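On the spike-in scale the 52 rises among the factor genes became 0 without moderation across genes and 19 with control libraries 2 and 3 summed, and 18 to 54 with a library left out. The 45 rises among the genes of connected steps became 0, 12 and 12 to 49 in the same order, and the 9745 rises of all genes 0, 3451 and 3223 to 11012. The 109 falls of all genes became 52 with a minimum mean of 50, 53 with DESeq2, 4 without moderation, 55 with the control libraries summed, and 25 to 234 with a library left out.

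On the relative scale the factor genes had 15 calls higher and 2 lower with DESeq2, and 0 to 30 and 0 to 3 with a library left out. The genes of connected steps had 8 and 3, and 0 to 18 and 0 to 6. All genes had 1 higher with a pseudocount of 0.1, 11 and 12 without a minimum mean, 2189 and 1777 with DESeq2, 13 and 11 without moderation, and 0 to 4046 and 4 to 3666 with a library left out. The nonzero counts of factor genes with a library left out came without vkche replicate 3. The cause was not tested.

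The relative median of the eIF2 kinases moved from -0.16 to 0.0012 without vkche replicate 3, in a range with a library left out from -0.24 to 0.0012. The medians of eIF2, eIF2B, eIF3, eIF4F and eEF1 stayed above 0 with any library left out. That of the inhibitors of eIF4E, -0.06, ranged from -0.13 to 0.03. The relative difference of Eif2ak3 turned to -0.0080 without vkche replicate 2, in a range with a library left out from -0.0080 to 0.10, and that of Eif2b3 to -0.0049 without control replicate 3, in a range from -0.0049 to 0.37.

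Replicate numbers shared by the groups were not used as pairs in the main fit. Deviations of same-numbered libraries correlated at 0.17, -0.15 and 0.18, and those of differently numbered libraries from -0.21 to 0.18. With so few libraries these values cannot exclude a pairing. With a replicate block the rises among the factor genes numbered 44 and the relative calls 0. The median levels per kb moved by less than the spread between libraries with the length of the longest transcript, an alternative chosen after seeing the data. The ratio of Eef1a2 to Eef1a1 was not run. Depth limits the least counted genes most, such as Eif4ebp3, and 0 reads of Eif3j1 bound its level but do not show its absence.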
